A study of Homo sapiens with 4 samples.

Results

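To study where c-MYC sits at the genes of the splicing machinery in pancreatic cancer cells, the promoters of 4 gene families were examined in the c-MYC ChIP-seq peak lists of MIA PaCa-2, an established human pancreatic ductal adenocarcinoma (PDAC) cell line. The families were all GENCODE protein-coding genes whose symbol begins with *SRSF* (SR proteins), *HNRNP* (heterogeneous nuclear ribonucleoproteins, hnRNPs), *SF3A* or *SF3B* (the U2-associated SF3 complexes) or *SNRP* (small nuclear ribonucleoprotein, snRNP, proteins). This gave 60 genes. The read-through gene *HNRNPUL2-BSCL2* has no protein-coding transcript and could not be placed, which left 59 of 19663 protein-coding genes. A gene was counted as having a promoter peak when a protein-coding transcript of it on GRCh38 began no more than 1 kb from a peak summit, that start being its transcription start site (TSS). ChIP-seq pulls down and sequences the DNA bound by a protein, and a peak is a stretch where the sequenced fragments pile up above the local background.

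For ChIP the cells spent 8 h in DMSO, the vehicle, in 100 nM of the inhibitor AMG510 or in 10 nM of trametinib, which inhibits MEK. The data comprised 4 libraries, which were c-MYC immunoprecipitates of DMSO-, AMG510- and trametinib-treated cells and an immunoglobulin (IgG) control of DMSO-treated cells. All come from the same line, and no group was replicated, so each difference between conditions is a difference between 2 libraries and carries no test. The c-MYC lists held 9552 peaks (DMSO), 10378 (AMG510) and 5431 (trametinib), and the IgG list 2966, at 22700000 to 24800000 tags in peak calling. Promoter peaks made up 48.3% of the DMSO, 27.0% of the AMG510 and 39.1% of the trametinib list, and 3.67% of the IgG list. Ranks within a list therefore refer to lists of different make-up. A tag is a sequenced read after filtering, and the pileup is the number of tags stacked at a summit. Fold enrichment is that pileup over the local background of the same library, with 1 tag added to each. Intervals given with pileups and shares are 95% exact Poisson and Clopper–Pearson intervals. They cover counting error only. Those of pileups are too narrow where a fragment sequenced from both ends entered as a pair of tags.

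Pre-mRNA splicing removes introns through the spliceosome, whose U1, U2, U4 and U5 snRNPs each carry a ring of Sm proteins around their small nuclear RNA. SF3A and SF3B are parts of the U2 snRNP that help it to hold the branch point. SR proteins bind exonic sequences and favour the use of nearby splice sites, whereas many hnRNPs bind silencer sequences, and the balance of both shapes alternative splicing. MYC is a transcription factor that binds, with its partner MAX, to E-boxes, of which CACGTG is the canonical form, and components of the splicing machinery are among its known targets in MYC-driven tumour cells.

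In DMSO-treated cells c-MYC had a promoter peak at 33 of the 59 splicing genes, or 55.9% (42.4 to 68.8), where 24.2% of all protein-coding genes had one. In AMG510 the count was 29, or 49.2% (35.9 to 62.5), against a background of 15.3%. In trametinib it was 26, or 44.1% (31.2 to 57.6), against 11.8%. The IgG list had none at these genes, which allows a share of up to 6.06%, beside 0.559% of all genes and 0.625% of those with a CpG-rich promoter. In total 40 members had a promoter peak in at least 1 c-MYC library (67.8%, against 31.7% of all genes), and 19 had none.

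CpG-rich promoters (GC content and density of CpG dinucleotides above set limits around the TSS) are more frequent among these genes, at 52 of 59 (88.1%), than among all protein-coding genes, at 65.1%. Within CpG-rich promoters alone, 61.5% of members and 34.4% of all genes had a DMSO peak. The corresponding shares were 53.8% and 21.7% in AMG510, and 50% and 16.9% in trametinib. Within this subset the members' shares were above the background shares in each c-MYC library. Neither CpG content within the subset nor expression in these cells was matched between members and all genes.

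**Figure D1:**
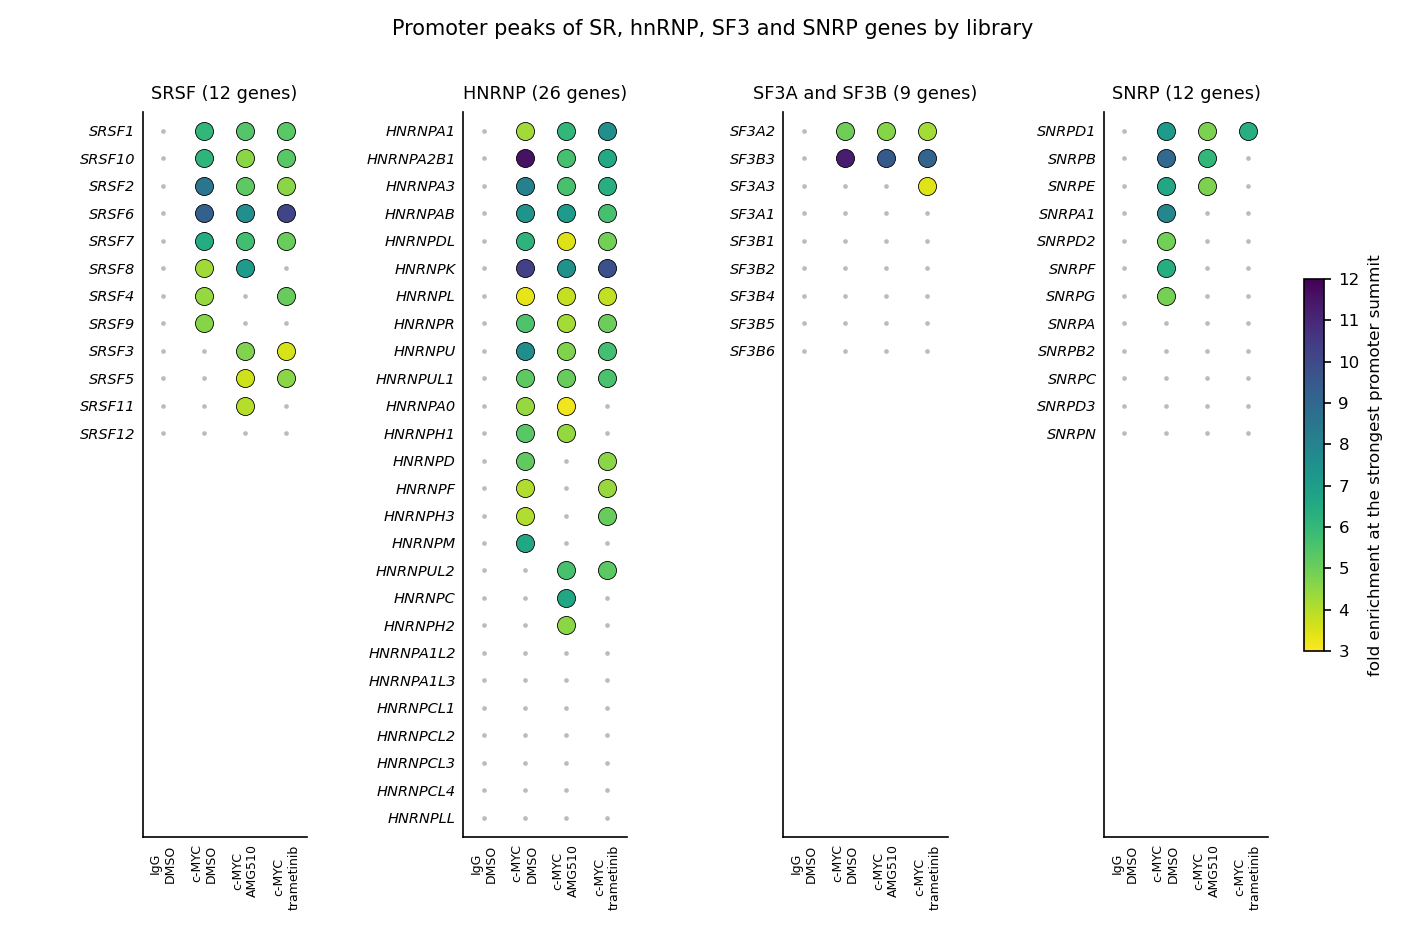
Promoter peaks of the 59 genes in the 4 libraries, by family; a filled circle marks a gene with a promoter peak, coloured by the fold enrichment of its strongest promoter summit, and a small grey dot marks a gene without. The IgG column is empty, 18 genes are filled in each c-MYC column, and the *SNRP* panel holds 7 filled circles for DMSO, 3 for AMG510 and 1 for trametinib.

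The counts were then taken by family. Of the 12 *SRSF* genes, 8 had a DMSO peak (66.7%), 9 an AMG510 peak (75%) and 8 a trametinib peak (66.7%). Of the 26 *HNRNP* genes, the numbers were 16, 15 and 14 (61.5%, 57.7% and 53.8%). The shares of all genes were 24.2%, 15.3% and 11.8%. Of the 9 *SF3A* and *SF3B* genes, 2 had a DMSO peak (22.2%, near the 24.2% of all genes), 2 an AMG510 peak (22.2%, against 15.3%) and 3 a trametinib peak (33.3%, against 11.8%). Of the 12 *SNRP* genes, 7 had a DMSO peak, 3 an AMG510 peak and 1 a trametinib peak. For *SNRP* these are shares of 58.3%, 25% and 8.33%, and in families this small 1 gene moves a share by several percentage points.

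**Figure D2:**
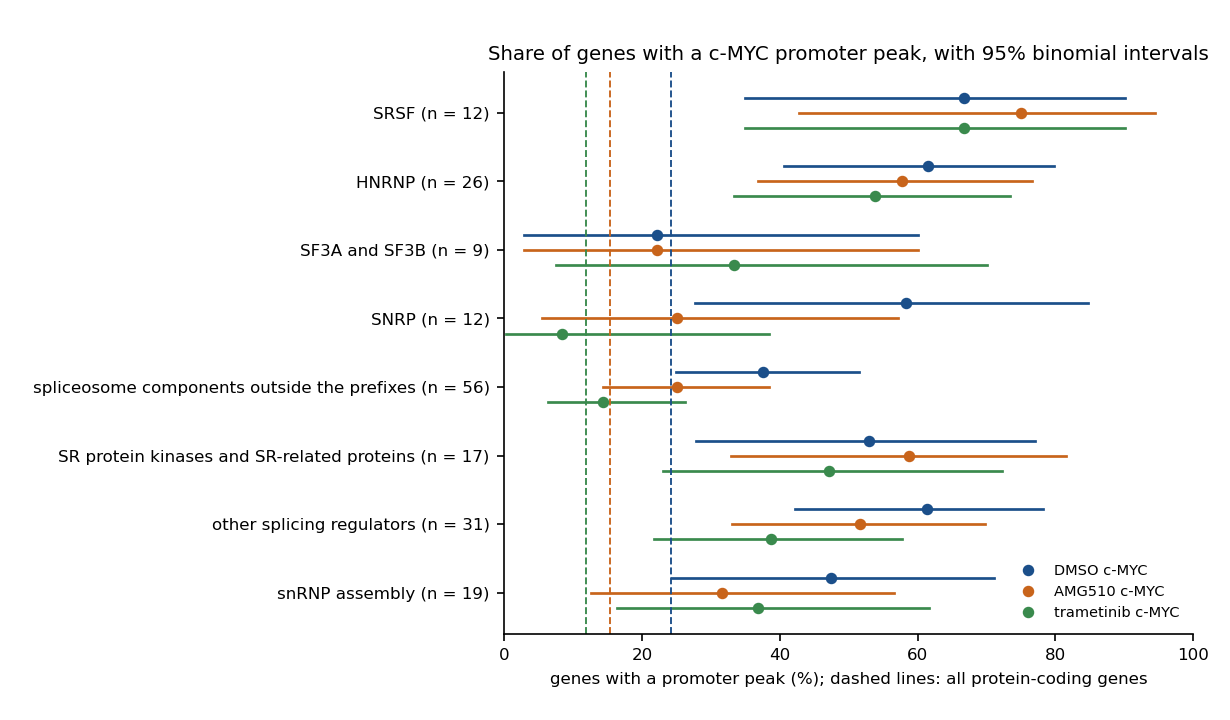
Share of genes with a c-MYC promoter peak in each family and in 4 lists of other splicing genes, as points with 95% binomial intervals, for DMSO, AMG510 and trametinib; dashed lines mark the share of all protein-coding genes. The *SRSF* and *HNRNP* points lie right of all dashed lines in each library, and the trametinib point of *SNRP*, at 8.33%, lies left of the 11.8% of all genes.

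A promoter peak was present in all 3 c-MYC libraries at 18 members (30.5%, against 5.59% of all genes). These were *SRSF1*, *SRSF2*, *SRSF6*, *SRSF7* and *SRSF10* among the SR genes. Among the hnRNP genes they were *HNRNPA1*, *HNRNPA2B1*, *HNRNPA3*, *HNRNPAB*, *HNRNPDL*, *HNRNPK*, *HNRNPL*, *HNRNPR*, *HNRNPU* and *HNRNPUL1*. The others were *SF3A2*, *SF3B3* and *SNRPD1*. DMSO and AMG510 shared 5 more (*HNRNPA0*, *HNRNPH1*, *SNRPB*, *SNRPE* and *SRSF8*; 8.47%, against 4.81%). DMSO and trametinib shared 4 (*HNRNPD*, *HNRNPF*, *HNRNPH3* and *SRSF4*; 6.78%, against 2.94%). A peak in DMSO alone was found at 6 (*HNRNPM*, *SNRPA1*, *SNRPD2*, *SNRPF*, *SNRPG* and *SRSF9*), a share of 10.2% that is near the 10.9% of all genes. Without a DMSO peak, 3 were called under both inhibitors (*HNRNPUL2*, *SRSF3* and *SRSF5*; 5.08%, against 0.692%), 3 in AMG510 alone (*HNRNPC*, *HNRNPH2* and *SRSF11*; 5.08%, against 4.21%) and 1 in trametinib alone (*SF3A3*; 1.69%, against 2.59%). The other 19 compare with 68.3% of all genes that had no c-MYC promoter peak.

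The comparison with each inhibitor asked which of the DMSO-bound promoters were called again. Of the 33 members with a DMSO peak, 23 also had an AMG510 peak, or 69.7% (51.3 to 84.4), against 43.0% of all DMSO-bound genes. In trametinib 22 did, or 66.7% (48.2 to 82.0), against 35.2%. The comparisons share the DMSO library. A peak was absent under both inhibitors at 18.2% of members (6.98 to 35.5) and at 44.9% of all DMSO-bound genes. The members' DMSO peaks were also stronger than average, so the shares were taken again for peaks with a DMSO fold enrichment above 5. They were then 81.8% (59.7 to 94.8) against 56.0% in AMG510, and 72.7% (49.8 to 89.3) against 48.5% in trametinib. This limit does not match strength among the peaks above it. There the members' peaks still ranked near the top of the DMSO list more often than those of all genes. These shares therefore do not separate membership from peak strength. Read from the inhibitors, 79.3% of the AMG510-bound members (all genes, 68.0%) and 84.6% of the trametinib-bound members (all genes, 72.2%) were also bound in DMSO. Of the 26 members without a DMSO peak, 6 had one in AMG510 (23.1%, against 6.47%) and 4 in trametinib (15.4%, against 4.33%).

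The strongest promoter peak of a member had a median fold enrichment of 6.14 in DMSO (range 3.35 to 11.6), 5.09 in AMG510 (3.18 to 9.5) and 5.18 in trametinib (3.44 to 10.2). Over all genes with a promoter peak the medians were 5.01, 4.71 and 4.76. In DMSO 13 of 33 members ranked in the top 10% of the list (39.4%, against 17.7% of all genes with a promoter peak). In AMG510 12 of 29 did (41.4%, against 19.8%) and in trametinib 7 of 26 (26.9%, against 15.7%). Their peaks were also wider, with a median of 446 bp in DMSO against 294 bp over all genes. More than 1 DMSO promoter peak was present at 9 of 33 members (27.3%, against 10.3%), for instance at *HNRNPA0*, *HNRNPA3*, *HNRNPD* and *SRSF2*. This held for 2 members in AMG510 (6.9%, against 5.88%) and 4 in trametinib (15.4%, against 5.34%). The number of starts per gene was not matched here either, and the DMSO peaks of *HNRNPM* lay at different starts. A fold enrichment above 5 was reached by 66.7% of the DMSO-bound members (all genes, 50.1%), 51.7% of those bound in AMG510 (37.6%) and 65.4% of those bound in trametinib (41.2%).

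Where both libraries had a peak, fold enrichment was mostly lower under the inhibitor, as it was over all genes. The strongest promoter peak of a gene in each library was compared, and these were not always at the same site. For instance, the summits lay 2875 bp apart at *HNRNPL* and 655 bp apart at *SRSF2* in AMG510, and 2038 bp apart at *HNRNPA2B1* in trametinib. Fold enrichment was lower in AMG510 than in DMSO at 20 of 23 members, or 87.0%, with a median log2 ratio of −0.38. Over all 2045 shared genes the median was −0.20, and 70.1% were lower. In trametinib 15 of 22 members were lower (68.2%), with a median of −0.19 against −0.23 over 1678 genes, of which 72.5% were lower. The pileup had a median log2 ratio of −0.66 in AMG510 and −0.47 in trametinib, against −0.47 and −0.42 over all shared genes. Its counting interval stood apart from that of DMSO at *HNRNPA2B1* and *HNRNPK* in AMG510 (8.7%, against 5.57% of all shared genes) and at *HNRNPA2B1* in trametinib (4.55%, against 5.48%), shares near the background. Elsewhere the intervals overlapped. Pileups also grow with the length to which tags were extended, taken as the shortest peak width of a list. It was 157 bp for AMG510 and 163 bp for trametinib, shorter than the 177 bp of the DMSO c-MYC library. Pileups were not corrected for this, so their ratios and intervals lean towards a drop under the inhibitors. Among the 18 genes with a peak in each c-MYC library, fold enrichment was highest in DMSO at 14 (77.8%, against 64.6% of the 1100 such genes overall) and lowest in DMSO at *HNRNPA1* and *HNRNPL* (11.1%, against 10.4%).

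**Figure D3:**
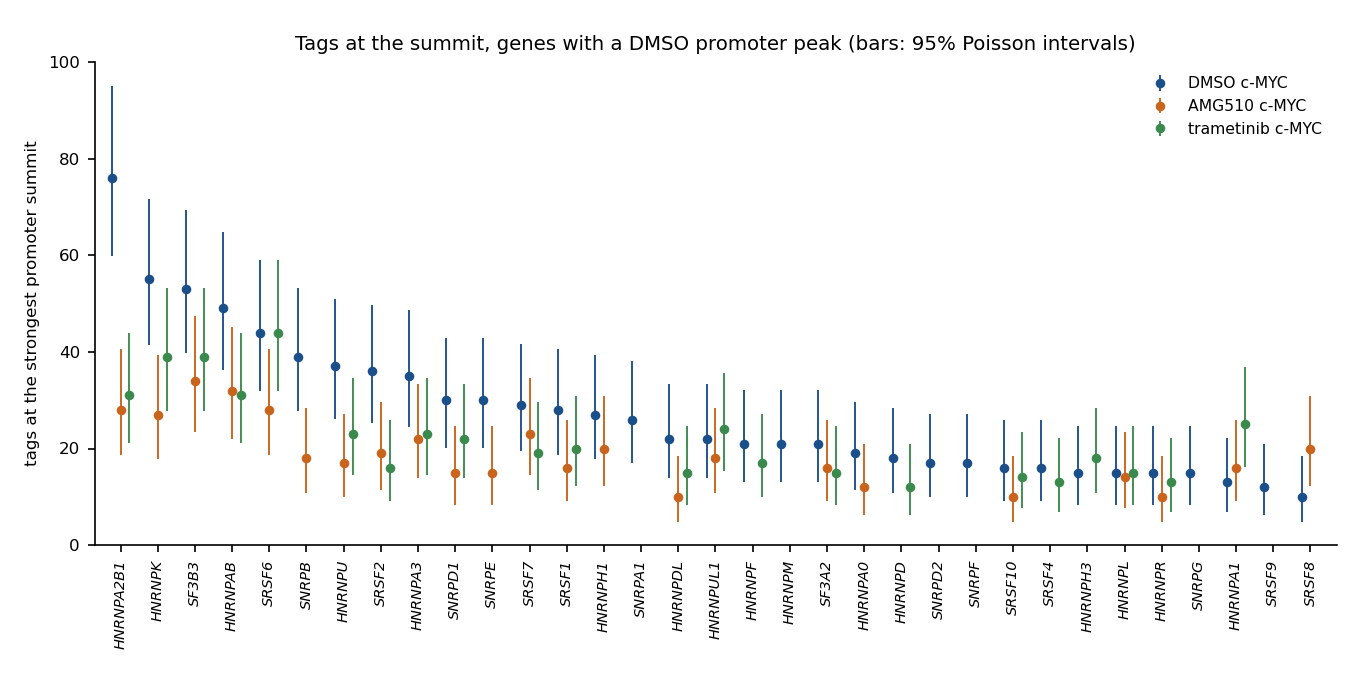
Tags at the strongest promoter summit of the 33 genes with a DMSO promoter peak, ordered by the DMSO value, with 95% Poisson intervals; a colour is missing where that library had no promoter peak. The DMSO values run from 10 to 76 tags, and *HNRNPA2B1* is the gene where both inhibitor intervals lie below the DMSO interval. Values are not corrected for the longer tag extension of the DMSO library.

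Of the 8 SR protein genes bound in DMSO, 6 were called again in AMG510 and 6 in trametinib (75% each, against 43.0% and 35.2% of all DMSO-bound genes). *SRSF6*, which encodes a regulator of alternative exons, had the strongest peaks of its family. Its DMSO peak on chromosome 20 from 43457897 to 43458358 held 44 tags (32.0 to 59.1) at a fold enrichment of 9.26. The AMG510 peak, from 43457892 to 43458348, held 28 tags (18.6 to 40.5) at 7.55, and the trametinib peak, from 43457902 to 43458641, held 44 tags (32.0 to 59.1) at 10.2. The summits lay in intron 1, within 59 bp of the DMSO summit. Each ranked above at least 97.9% of its list, so *SRSF6* was near the top in all 3 libraries.

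*SRSF1* encodes the founding member of the family, a splicing activator and proto-oncogene. Its peaks lay in intron 1 on chromosome 17, from 58006507 to 58006853 in DMSO with 28 tags (18.6 to 40.5), from 58006457 to 58006704 in AMG510 with 16 (9.15 to 26.0) and from 58006493 to 58006856 in trametinib with 20 (12.2 to 30.9). The fold enrichments were 6.06, 5.40 and 5.32, and the pileup intervals overlapped. *SRSF2*, which shares its promoter region with *MFSD11*, had its summit at different places. DMSO had peaks in intron 1 (36 tags, fold enrichment 8.51) and in the 5′ UTR (19 tags, 4.64). The AMG510 peak had its summit in the 5′ UTR (19 tags, 5.23) and the trametinib peak in intron 1 (16 tags, 4.55).

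Other SR genes were called in some libraries only. *SRSF4* had a peak in intron 1 with 16 tags in DMSO and 13 in trametinib, at fold enrichments of 4.44 and 5.10, and none in AMG510. *SRSF8*, an intronless relative of *SRSF2*, had a peak with 10 tags in DMSO (4.8 to 18.4) and 20 in AMG510 (12.2 to 30.9), which overlap. *SRSF3* and *SRSF5* had peaks under both inhibitors and none in DMSO. At *SRSF3*, on chromosome 6, these ran from 36594349 to 36594750 in AMG510 with 16 tags (9.15 to 26.0) and from 36594307 to 36594554 in trametinib with 12 (6.2 to 21). At *SRSF5*, on chromosome 14, they held 10 tags (4.8 to 18.4) and 13 tags (6.92 to 22.2). *SRSF9* had a peak in DMSO alone and *SRSF11* in AMG510 alone, with 12 and 9 tags. *SRSF12* had none. With the exception of *SRSF8* in AMG510, whose fold enrichment of 7.09 was above 97.6% of its list, none of these peaks exceeded 16 tags.

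The hnRNP genes included the largest member peak. At *HNRNPA2B1*, whose products bind RNA at splice sites and in transport, the DMSO peak on chromosome 7 from 26201991 to 26202437 held 76 tags (59.9 to 95.1) at a fold enrichment of 11.6, rank 57 of 9552. The AMG510 peak there, from 26202014 to 26202372, held 28 tags (18.6 to 40.5) at 5.67. The trametinib peak, from 26201999 to 26202446, held 31 tags (21.1 to 44) at 6.47, so both inhibitor intervals lay below the DMSO interval. This summit is 971 bp upstream of the nearest *HNRNPA2B1* start, or 1526 bp when counted from the canonical TSS. It is also within 1 kb of a start of *CBX3*, the gene on the opposite strand. In intron 1 of *HNRNPA2B1* a further peak was called in AMG510 (20 tags, fold enrichment 4.18) and in trametinib (31 tags, 6.56), and none was called there in DMSO, where the second peak of the gene (25 tags, 3.92) lay upstream.

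*HNRNPK*, which encodes a poly(C)-binding protein with roles in transcription and splicing, had peaks in intron 1 of its canonical transcript on chromosome 9. They ran from 83979597 to 83980189 in DMSO with 55 tags (41.4 to 71.6), from 83979453 to 83980002 in AMG510 with 27 (17.8 to 39.3) and from 83979553 to 83980194 in trametinib with 39 (27.7 to 53.3). The summits lay 131, 52 and 94 bp upstream of the nearest start, that of another transcript. The fold enrichments were 10.3, 7.41 and 9.76, each above at least 97.9% of its list. The AMG510 interval lay below the DMSO interval and the trametinib interval overlapped it. *HNRNPA3* had its main peak in intron 1 of its canonical transcript, on chromosome 2 from 177212955 to 177213444 in DMSO, with 35 tags there. It held 22 and 23 tags under AMG510 and trametinib, and the fold enrichments were 8.12, 5.62 and 6.36. The summits lay 162 bp (DMSO), 192 bp (AMG510) and 164 bp (trametinib) upstream of the nearest start, that of another transcript. The DMSO and trametinib summits were 2 bp apart. A second peak 498 bp upstream of the canonical TSS was called in DMSO (25 tags) and overlapped by a trametinib peak (18 tags).

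At *HNRNPAB*, on chromosome 5, the DMSO peak from 178204540 to 178205353 held 49 tags (36.3 to 64.8), the AMG510 peak from 178204583 to 178205205 held 32 (21.9 to 45.2) and the stronger trametinib peak from 178204973 to 178205289 held 31 (21.1 to 44). The fold enrichments were 7.35, 7.11 and 5.67. *HNRNPUL1*, with a DMSO peak on chromosome 19 from 41264270 to 41264872, had 22, 18 and 24 tags at fold enrichments of 5.23, 5.09 and 5.57 in DMSO, AMG510 and trametinib. *HNRNPA1*, the best-known splicing repressor of the family, was lowest in DMSO. It held 13 tags in DMSO (6.92 to 22.2), 16 in AMG510 (9.15 to 26.0) and 25 in trametinib (16.2 to 36.9), at fold enrichments of 4.24, 6.09 and 7.51, with overlapping intervals. At *HNRNPL*, the other member with its lowest fold enrichment in DMSO, the peaks held 15, 14 and 15 tags, and the AMG510 summit lay 2875 bp from the DMSO summit, near the start of another transcript. Both genes were chosen for description after their values were seen.

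Several hnRNP genes were called with only 1 inhibitor. *HNRNPH1*, a binder of G-rich sequences, had DMSO peaks with 27 and 22 tags (fold enrichments 5.35 and 4.47), both overlapped by AMG510 peaks with 16 and 20 tags (3.52 and 4.46), and none in trametinib. *HNRNPD*, whose product binds AU-rich elements, had 18 tags in DMSO on chromosome 4 from 82373803 to 82373983 and 12 in trametinib, with summits 6 bp apart, and no AMG510 peak. At *HNRNPF*, on chromosome 10, the stronger DMSO peak held 21 tags (13 to 32.1) at a fold enrichment of 4.08 and the trametinib peak 17 (9.9 to 27.2) at 4.38, and the peaks did not overlap. The 2 DMSO peaks of *HNRNPA0* and its AMG510 peak did not overlap either, and the latter, with 12 tags at a fold enrichment of 3.18, ranked above only 1.14% of its list.

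*HNRNPM* had peaks in DMSO alone. The stronger, on chromosome 19 from 8485699 to 8486273 with 21 tags (13 to 32.1) and a fold enrichment of 6.63, lies in coding exon 14, 4 bp from the start of a short transcript, whereas the canonical TSS is 41179 bp away. The peak at the canonical promoter held 14 tags. Peaks without a DMSO counterpart were strongest at *HNRNPC* in AMG510, on chromosome 14 from 21269256 to 21269457, with 20 tags (12.2 to 30.9) in the 5′ UTR and a fold enrichment of 6.63, and at *HNRNPUL2*, on chromosome 11, with 13 tags in AMG510 and 13 in trametinib at fold enrichments of 5.62 and 5.26. *HNRNPH2* had an AMG510 peak alone. The 6 copies *HNRNPA1L2*, *HNRNPA1L3* and *HNRNPCL1* to *HNRNPCL4* had no promoter peak, nor did *HNRNPLL*. The mapping quality filter removes reads that match near-identical copies equally well, and its part in these missing peaks was not tested.

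Among the *SNRP* genes bound in DMSO, 3 of 7 were called again in AMG510 (42.9%, against 43.0% of all DMSO-bound genes) and 1 of 7 in trametinib (14.3%, against 35.2%). The AMG510 share is thus that of the background, and the trametinib share rests on 1 gene. The Sm ring consists of the products of *SNRPB*, *SNRPD1*, *SNRPD2*, *SNRPD3*, *SNRPE*, *SNRPF* and *SNRPG*. Of these 7 genes 6, all but *SNRPD3*, had a DMSO promoter peak, where 24.2% of all genes had one. Outside the ring 1 of 5 *SNRP* genes did. In AMG510 3 of the 6 were called again and in trametinib 1 (50% and 16.7%, against 43.0% and 35.2% of all DMSO-bound genes). This grouping was made after the values were seen, and no difference from other genes was tested. The DMSO peaks of the Sm genes had a median fold enrichment of 6.53 and 23.5 tags, beside 5.42 and 21.5 tags for the *HNRNP* genes.

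*SNRPD1*, on chromosome 18, was the Sm gene called in each c-MYC library. Its peaks in intron 1 held 30 tags (20.2 to 42.8) from 21612189 to 21612724 in DMSO, 15 (8.4 to 24.7) from 21612437 to 21612651 in AMG510 and 22 (13.8 to 33.3) from 21612502 to 21612755 in trametinib, at fold enrichments of 7.08, 4.79 and 6.32. *SNRPB* had the strongest DMSO peak of the family, on chromosome 20 from 2470211 to 2470777 in intron 1, with 39 tags (27.7 to 53.3) and a fold enrichment of 8.91. In AMG510 it held 18 tags (10.7 to 28.4) at 6.06, with the summit 27 bp away, and no trametinib peak was called. *SNRPE*, with a DMSO peak on chromosome 1 from 203861534 to 203861864, had 30 tags (20.2 to 42.8) in DMSO and 15 (8.4 to 24.7) in AMG510, at fold enrichments of 6.65 and 4.77, and likewise no trametinib peak. At the Sm genes called in AMG510, its pileups were thus the lower ones, with overlapping intervals.

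*SNRPF*, on chromosome 12, had a DMSO peak from 95858964 to 95859222 with 17 tags (9.9 to 27.2) and a fold enrichment of 6.42. *SNRPG*, on chromosome 2 from 70293192 to 70293381, had 15 tags (8.4 to 24.7) at 4.87, and *SNRPD2*, on chromosome 19 from 45692705 to 45692882, had 17 (9.9 to 27.2) at 4.92, 812 bp upstream of the canonical TSS and also within 1 kb of a start of *QPCTL*. None of the 3 was called under an inhibitor. Outside the ring, *SNRPA1*, which encodes the U2 A′ protein, had a DMSO peak on chromosome 15 from 101294723 to 101295206 with 26 tags (17 to 38.1). It lay in intron 1 of the canonical transcript, with the summit 133 bp upstream of the nearest start. Its fold enrichment of 7.84 was above 95.7% of the list, the highest of the members bound in DMSO alone. *SNRPA*, *SNRPB2*, *SNRPC* and *SNRPN* had no c-MYC promoter peak.

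The pileup at a site without a peak is not in the lists, but the lists show how low a pileup was still called. In trametinib, peaks with a local background within 10% of that of *SNRPB* in DMSO were called from 12 tags upward, and for *SNRPE* from 13 and for *SNRPA1* from 9. Over the 11 DMSO-bound members without a trametinib peak this limit ran from 8 to 15 tags, and the DMSO pileup was above it in all 11. Over the 10 members without an AMG510 peak it ran from 8 to 13 tags, also below each DMSO pileup. This outcome was nearly fixed in advance, since each DMSO pileup had itself been called at such a background under the same q-value limit. It therefore does not show that binding was lost under an inhibitor. These limits also assume that the local background was alike in both libraries, which was not tested.

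No c-MYC promoter peak was present at 66.7% of the SF3 genes, near the 68.3% of all genes. *SF3B3*, which encodes a scaffold protein of SF3B, had strong ones. Its peaks in intron 1 on chromosome 16 held 53 tags (39.7 to 69.3) from 70523725 to 70524222 in DMSO, 34 (23.5 to 47.5) from 70523799 to 70524179 in AMG510 and 39 (27.7 to 53.3) from 70523761 to 70524188 in trametinib. The fold enrichments of 11.3, 9.5 and 9.14 were above at least 98.4% of each list, which made *SF3B3* the member whose lowest percentile over the 3 libraries was highest. A start of *COG4* lies within 1 kb of each of these summits. *SF3A2* had peaks upstream of its TSS in each c-MYC library, with 21, 16 and 15 tags in DMSO, AMG510 and trametinib, near a start of *PLEKHJ1*. *SF3A3* had a weak trametinib peak of 10 tags. The other 5 *SF3B* genes and *SF3A1* had none, and these include *SF3B1*, which encodes the branch-point binding subunit.

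Summits lay more often downstream than upstream of the nearest TSS. This held for 24 of 33 strongest member peaks in DMSO (72.7%, against 62.6% of all genes with a promoter peak), 21 of 29 in AMG510 (72.4%, against 60.9%) and 20 of 26 in trametinib (76.9%, against 61.4%). Intron 1 of the canonical transcript held 22 of the 33 in DMSO (66.7%, against 33.9%), 16 of 29 in AMG510 (55.2%, against 36.4%) and 16 of 26 in trametinib (61.5%, against 34.9%). The median distance from the TSS was 226, 203 and 241 bp, against 181, 187 and 175 bp over all genes with a promoter peak. At 12 of the 40 members with a c-MYC peak (30.0%, against 24.3% of all such genes), a peak also lay within 1 kb of a start of another protein-coding gene, as for *SRSF7* with *GEMIN6*, *HNRNPA1* with *CBX5* and *SRSF9* with *DYNLL1*. Which of the genes such a peak belongs to cannot be told apart. Without these peaks, 24 members were left with a promoter peak in DMSO (40.7%, against 18.5% of all genes), 20 in AMG510 (33.9%, against 11.8%) and 17 in trametinib (28.8%, against 8.82%), a choice made after the data were seen.

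**Figure D4:**
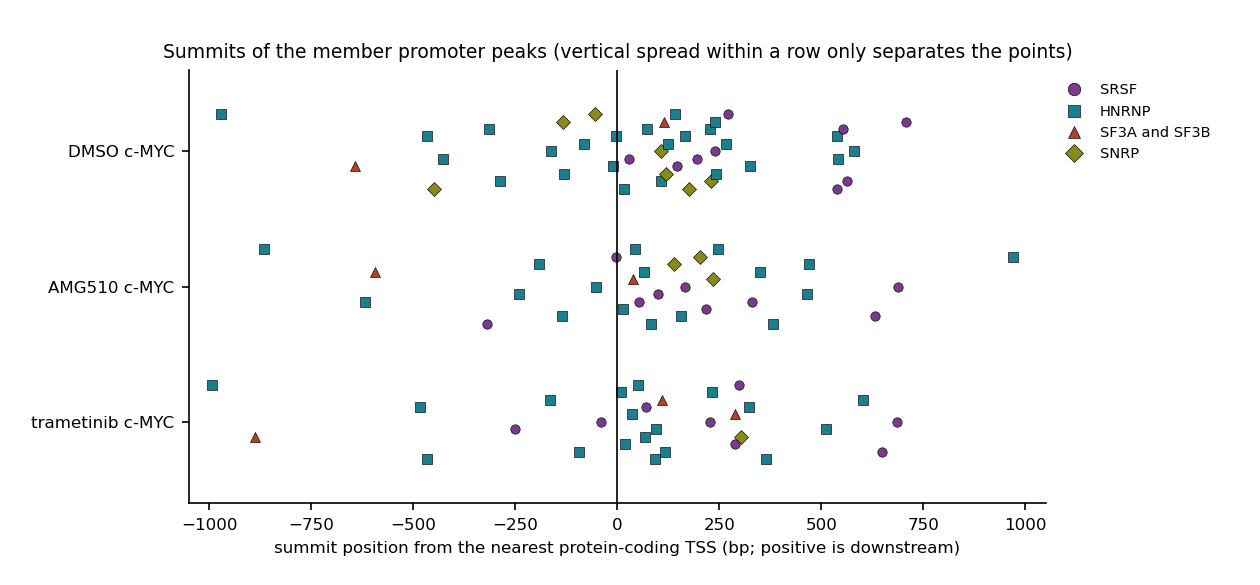
Position of every member promoter summit from the nearest protein-coding TSS of its gene, in bp with positive values downstream, by c-MYC library and coloured by family. Most points lie to the right of the line at 0, and there are 7 *SNRP* points for DMSO, 3 for AMG510 and 1 for trametinib.

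Overlap of the peaks themselves was counted next, with at least 1 shared base. An AMG510 peak overlapped 23 of the 42 DMSO member peaks (54.8%, against 33.1% of all DMSO promoter peaks) and a trametinib peak 21 of them (50%, against 27.7%). No IgG peak overlapped any of the 42, beside 0.195% of all DMSO promoter peaks. In the opposite direction, 22 of 31 AMG510 member peaks (71.0%, against 55.2%) and 23 of 30 trametinib member peaks (76.7%, against 61.0%) overlapped a DMSO peak. The median gap between overlapping summits was 57 bp for AMG510 and 64 bp for trametinib.

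The canonical E-box was present at few of these summits. CACGTG, which reads the same on both strands, lay no more than 100 bp from the summit in 4 of 42 DMSO member peaks, or 9.52% (2.66 to 22.6), where 16.9% of all DMSO promoter peaks held it. In AMG510 it was 1 of 31, or 3.23% (0.0816 to 16.7), against 14.4%, and in trametinib 3 of 30, or 10.0% (2.11 to 26.5), against 17.3%. All 3 intervals hold the background share, so a difference was not detectable with this number of peaks. Of the IgG promoter peaks in the whole genome, 4.59% held it. Around the canonical TSS (500 bp to either side) an E-box was present at 10 of 59 members, or 16.9%, against 18.3% of all genes. The members that hold an E-box near a summit are shown here on the strand of the gene, with the E-box in capitals, since they are the sites in the set with the sequence MYC is best known to bind; those other than *HNRNPF* and *SRSF6* were chosen after their values were seen.
HNRNPA1, chr12:54281244-54281273, plus strand: gataggcagaagCACGTGtcttgttgcgac
HNRNPF, chr10:43407875-43407904, minus strand: aagccgcgcgctCACGTGgctgcaggcgcc
HNRNPL, chr19:38851925-38851954, minus strand: cgtcacgcgggcCACGTGcttcagacgcgg
HNRNPU, chr1:244862980-244863009, minus strand: ctcttcgggataCACGTGggcttcgggcct
SRSF2, chr17:76736699-76736728, minus strand: tccgcggcgaagCACGTGgtgcgggcccgg
SRSF6, chr20:43458289-43458318, plus strand: tacgggcgcgcgCACGTGcgcgtcctggct

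The E-boxes of *HNRNPA1* and *HNRNPF* lay 12 bp from a DMSO summit. That of *HNRNPU*, whose product is a nuclear matrix and RNA-binding protein, was 96 bp from the DMSO summit and 18 bp from the trametinib summit, in intron 1. That of *SRSF2* was 90 bp from the DMSO and 68 bp from the trametinib summit. Those of *HNRNPL* and *SRSF6* were within reach of the trametinib and the AMG510 summit only, at 62 and 76 bp. Of the 6 genes, 5 had a peak in each c-MYC library and *HNRNPF* in DMSO and trametinib. None of the 6 members bound in DMSO alone had an E-box at a summit. Genes bound in more libraries had more summits at which to hold one, and no such shares were taken over all genes. These counts therefore do not relate the E-box to binding under the inhibitors.

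A related sequence was found at more summits. CACGCG, or CGCGTG when read on the other strand, which differs from the canonical E-box by 1 base and cannot be counted at the same position, occurred in the same windows in 33.3% of DMSO member peaks (against 23.3% of all promoter peaks), 38.7% of AMG510 member peaks (against 21.1%) and 43.3% of trametinib member peaks (against 22.2%). Median GC content was 69.2% for DMSO member peaks and 72.1% for all DMSO promoter peaks, with medians of 21 and 22 CpG dinucleotides per window. A copy was present in each c-MYC library at 8 of the 18 genes bound throughout (44.4%, 21.5 to 69.2, against 13.8% of all genes bound in the 3 libraries), namely *HNRNPA1*, *HNRNPA2B1*, *HNRNPAB*, *HNRNPDL*, *HNRNPK*, *SNRPD1*, *SRSF6* and *SRSF7*. Not every strong peak held it, and *SF3B3*, *HNRNPA3* and *SNRPB* had no copy in any of these windows. Copies near the summits of 4 strong genes that held it are shown on the strand of the gene, with the motif in capitals, and were likewise chosen after the values were seen.
HNRNPK, chr9:83979685-83979714, minus strand: agacctcgggacCGCGTGgtgggtggggga
SRSF6, chr20:43458219-43458248, plus strand: aggccgcggcgcCGCGTGgcagggcctcaa
HNRNPA2B1, chr7:26202275-26202304, minus strand: tgcgccacaccgCACGCGcctacccccgcg
HNRNPAB, chr5:178205098-178205127, plus strand: ttttgttggcgcCACGCGgcggggggaggg

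At *HNRNPK* this copy lay 52 bp from the DMSO summit, 26 bp from the AMG510 summit and 16 bp from the trametinib summit. At *SRSF6* the distances were 66, 6 and 38 bp, and at *HNRNPAB* 4, 78 and 60 bp. The copy shown for *HNRNPA2B1* lay 18 bp from the DMSO and 4 bp from the trametinib summit. A match is a description of the reference sequence and does not show which bases were bound.

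The wider splicing machinery was examined in 4 lists of genes outside these prefixes. Among 56 other spliceosome components, 21 had a DMSO peak (37.5%, 24.9 to 51.5), 14 an AMG510 peak and 8 a trametinib peak (14.3%, 6.38 to 26.2), the last close to the 11.8% of all genes. *DHX15*, a helicase that takes spliceosomes apart, had the largest DMSO fold enrichment (8.57) and a peak in all 3 libraries. *U2AF1*, which encodes the small U2AF subunit that reads the 3′ splice site, had a fold enrichment of 8.16 in DMSO and no peak under either inhibitor. *DDX39B* was bound in all 3, at 6.79 in DMSO, 4.16 in AMG510 and 6.15 in trametinib. Among 17 SR protein kinases and SR-related proteins the numbers were 9, 10 and 8 (52.9%, 58.8% and 47.1%, against 24.2%, 15.3% and 11.8% of all genes). They were led by *RNPS1* (9.36), *SRRM2* (8.67) and *TRA2B* (4.92), each with a peak in all 3 libraries.

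Among 31 other splicing regulators, 19 had a DMSO peak (61.3%, 42.2 to 78.2, against 24.2% of all genes). An AMG510 peak was present at 16 (51.6%, against 15.3%) and a trametinib peak at 12 (38.7%, against 11.8%). *PCBP1* (fold enrichment 9.79 in DMSO), *PTBP1* (9.05), which encodes the polypyrimidine tract binding protein, and *MATR3* (7.33) led this list and were bound in all 3. Of 19 snRNP assembly genes, 9 had a DMSO peak (47.4%, against 24.2%), 6 an AMG510 peak (31.6%, against 15.3%) and 7 a trametinib peak (36.8%, against 11.8%). An IgG peak was present at 1 of them (5.26%, against 0.559% of all genes). Here 7 of the 9 DMSO-bound genes were called again in trametinib (77.8%, 40.0 to 97.2) and 4 in AMG510 (44.4%, 13.7 to 78.8). Of all DMSO-bound genes 35.2% and 43.0% were. The same trametinib and AMG510 shares were 38.1% and 57.1% for the other spliceosome components. They were 66.7% and 77.8% for the SR kinases and SR-related proteins, and 52.6% and 57.9% for the other splicing regulators. *GEMIN7* had fold enrichments of 11.4 in DMSO, 3.72 in AMG510 and 4.54 in trametinib. *GEMIN4*, another part of the SMN complex, had 8.57, 7.21 and 9.01. *PRMT5*, the arginine methyltransferase that modifies Sm proteins before assembly, had 7.41 in DMSO and 5.45 in trametinib, and no AMG510 peak.

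Peaks inside the genes and away from any promoter were counted last. Such a peak was found at 5 members in IgG (8.47%, against 5.38% of all genes), 1 in DMSO c-MYC (1.69%, against 9.02%), 3 in AMG510 c-MYC (5.08%, against 12.7%) and 1 in trametinib c-MYC (1.69%, against 6.18%). Gene length was not matched in these shares. Those of the c-MYC libraries held 9 to 11 tags, in introns of *HNRNPM*, *HNRNPA1L3*, *HNRNPC* and *SNRPG* and past the end of the canonical transcript of *HNRNPU*.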

How the data were processed

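Peak lists of 4 MIA PaCa-2 ChIP-seq libraries were analysed, 1 per group as given in the sample titles. According to the methods, the authors trimmed reads, aligned them to GRCh38 with bwa, kept mapping quality of at least 20, removed duplicates, called peaks per library with MACS2 at a q-value limit of 0.05 and removed peaks on the ENCODE exclusion list. Per the submitters' processing notes the tools were Trimmomatic 0.39, BWA 0.7.17, SAMtools 1.9, bedtools 2.27.1 and MACS2 2.2.7.1. The deposited values are the fold enrichment, a ratio of pileup to background in the same library with 1 tag added to each, the summit's −log10 p-value and its −log10 q-value, and a score that is 10 times the −log10 q-value, cut to a whole number by the authors' caller. The methods do not state a control library in calling.

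Whole tags at the summit were solved from the deposited fold enrichment and p-value (100% of peaks within 0.001), and depth from the genome-wide background, the shortest peak width and a genome of 2700000000 bp. Tag recovery and the assignment of peaks to promoters were tested on simulated data. Genes and TSS came from GENCODE version 44, without mitochondrial genes. The percentile of a peak is the share of its own list with a lower fold enrichment. CpG-rich promoters have over 50% GC and an observed to expected CpG ratio above 0.6 within 500 bp of the canonical TSS. Python 3.11.15, SciPy 1.17.1 and pandas 2.3.3 were used. Members, gene lists and comparisons were chosen with earlier results of these data known.

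Genes were described with values by a fixed rule, which took the 8 members with the highest smallest percentile among those bound in all c-MYC libraries, the 5 strongest bound in DMSO alone and, for each inhibitor, the 3 strongest bound in DMSO and that inhibitor only and the 3 strongest bound under it without DMSO. In each list of other splicing genes the 3 strongest in DMSO were named. Other members are named by class or were chosen after their values were seen. The CpG-rich comparison and the Sm ring were also added after the data were seen. Alternatives changed the distance to the TSS, the set of TSS, the strength of peaks, the gene set and the motif window. No replicate exists, so no test between conditions was made.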

Additional observations from a re-analysis of the deposited data

Results flagged for a closer look

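The fold enrichment moved in opposite directions under the inhibitors at *HNRNPUL1* and *SRSF6*, among the 18 members with a promoter peak in each c-MYC library. Relative to DMSO, *SRSF6* stood at −0.30 on the log2 scale in AMG510 and at 0.14 in trametinib, and *HNRNPUL1* at −0.04 and 0.09. At both genes the DMSO value thus lay between those of the inhibitors. Fold enrichment was highest in DMSO at 77.8% of the 18 members and 64.6% of all 1100 such genes. It was lowest in DMSO at 11.1% and 10.4%. A value in between was therefore no more frequent among the members than over all such genes. Each value rests on 1 library, the pileup intervals overlap, and the difference between the inhibitors was not tested.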

How the results depend on the processing

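No paired analysis was possible because no group held more than 1 library, which also left no replicate to leave out. The 12 results were recomputed 72 times with a single choice changed. In 62 cases the value kept within its counting interval, or a gene number within a factor of 1.5. It left that range in 10. Some of the 62 could not have moved. The copies had no promoter peak, so leaving them out changed nothing, and stricter settings cannot lower an IgG count that was already empty. A fold enrichment above 5 left 22 of the 59 members with a promoter peak in DMSO, 15 in AMG510 and 17 in trametinib. Of all 19663 genes, 2387, 1131 and 958 had such a peak. A score above 60 left 22, 12 and 11 members. The DMSO count, 33 without these limits, was counted among the 62 since it fell just within the factor of 1.5. The share of DMSO-bound members also bound in AMG510 was 50% when both peaks had to have a fold enrichment above 5. The score limit and this share were not recomputed over all genes, so they cannot be set beside a background. Peaks near no other protein-coding gene, an alternative chosen after the data were seen, left 17 members in trametinib. With CACGTG or CACGCG counted, 40.5% of DMSO, 38.7% of AMG510 and 50% of trametinib member peaks held a motif, since this adds a second sequence. With CACGTG within 50 bp the AMG510 share was 0%. Other causes were not tested. A score marks a different enrichment in each library, and weak peaks of 8 to 15 tags sit at the limit of what was called.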
